A study of Mus musculus with 9 samples.

Results

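The transcription factor gene Trp53 and 9 genes known as its targets, Cdkn1a, Mdm2, Ccng1, Trp53inp1, Phlda3, Sesn1, Sesn2, Zmat3 and Btg2, were followed in crypt intestinal epithelial cells (IECs) after activation of natural killer T (NKT) cells in vivo. These 10 genes were picked by gene symbol, with earlier results of these data known, and they are 10 of the 29288 genes in the count table. RNA was sequenced from live crypt cells of the proximal small intestine, gated as EpCAM+ and negative for Ter119, CD31 and CD45, from wild-type female C57BL/6J mice. Control mice received PBS intraperitoneally and were sampled at 18 h, while 2 µg of α-galactosylceramide (αGal), a glycolipid that CD1d displays to NKT cells, was given to the mice sampled at 18 h (18h-αGal) and 72 h (72h-αGal), with 3 mice per group. The controls were all labelled 18 h, so at 72 h the effects of αGal and of the sampling time cannot be told apart. The labels gave no age and no litter or processing batch, and the study's methods give the age only as a range of weeks for all its mice.

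p53 is held at low activity by Mdm2, a ubiquitin ligase that marks it for degradation and that is itself a p53 target. After DNA damage or other stress, p53 is stabilised largely at the protein level and raises genes for cell cycle arrest, apoptosis, DNA repair and control of metabolism, and Cdkn1a (p21) then acts through the DREAM complex to hold down genes of cell division. In the intestinal crypt the pathway is best known from irradiation, after which crypt cells arrest or die. Several of these targets also respond to other factors, so a change in 1 of them alone does not report p53 activity.

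The promoters of the targets differ in sequence, and the 250 bases before the transcription start are shown for the genes that were called in a comparison and for Mdm2 as the feedback target (RefSeq, mouse build GRCm38.p6, reading along the gene). Of the 10 genes, 8 matched the promoter table, with 10 windows. Trp53inp1 and Zmat3 had no entry. Capitals mark the p53 binding half-site in the first 4 windows and the cyclic AMP response element (TGACGTCA) in the last.
Cdkn1a: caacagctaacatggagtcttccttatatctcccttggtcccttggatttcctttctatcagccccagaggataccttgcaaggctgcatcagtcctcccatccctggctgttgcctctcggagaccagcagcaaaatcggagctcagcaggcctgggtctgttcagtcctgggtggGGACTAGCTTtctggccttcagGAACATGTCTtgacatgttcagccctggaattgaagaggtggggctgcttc
Ccng1: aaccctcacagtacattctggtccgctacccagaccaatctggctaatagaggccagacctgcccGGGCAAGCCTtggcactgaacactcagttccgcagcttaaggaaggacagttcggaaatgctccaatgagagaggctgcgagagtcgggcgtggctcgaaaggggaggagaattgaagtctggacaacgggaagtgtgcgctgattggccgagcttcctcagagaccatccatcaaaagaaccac
Mdm2: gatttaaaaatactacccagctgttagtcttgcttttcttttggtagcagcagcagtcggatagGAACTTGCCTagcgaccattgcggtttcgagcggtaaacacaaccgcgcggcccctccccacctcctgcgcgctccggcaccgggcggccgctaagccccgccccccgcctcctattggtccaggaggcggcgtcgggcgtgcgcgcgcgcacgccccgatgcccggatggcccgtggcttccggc
Sesn1: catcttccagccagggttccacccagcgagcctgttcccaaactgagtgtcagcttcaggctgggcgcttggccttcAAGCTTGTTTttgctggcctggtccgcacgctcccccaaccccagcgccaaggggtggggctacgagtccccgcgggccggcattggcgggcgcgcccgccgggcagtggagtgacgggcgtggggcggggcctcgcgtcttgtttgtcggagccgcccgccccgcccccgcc
Btg2: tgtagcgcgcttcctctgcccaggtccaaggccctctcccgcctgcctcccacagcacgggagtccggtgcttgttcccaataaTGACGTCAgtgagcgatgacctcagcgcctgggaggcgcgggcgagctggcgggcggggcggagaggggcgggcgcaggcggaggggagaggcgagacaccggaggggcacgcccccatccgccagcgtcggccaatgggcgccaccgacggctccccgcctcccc
The Cdkn1a window is chr17:29090729-29090978 on the plus strand, before the more distal of its RefSeq starts, and holds a match at 73 to 64 and another at 51 to 42 bases before the start. The Ccng1 window is chr11:40755287-40755536 on the minus strand, with its match at 185 to 176 bases before the start. Mdm2 (chr10:117710759-117711008, minus strand) has a match at 186 to 177 bases, and Sesn1 (chr10:41887189-41887438, plus strand, the more downstream of its starts) at 173 to 164 bases. The Btg2 window (chr1:134079156-134079405, minus strand) has no exact match to the p53 half-site pattern and holds the cyclic AMP response element at 166 to 159 bases before its start. Both strands were searched, but only in the 250 bases before the starts, so sites elsewhere, for example in introns, are not covered. The half-site was found in 5 of the 10 windows, those above and that of Trp53, and in 7.13% of 32851 mouse promoters, whereas the cyclic AMP response element was found in 1.55% of promoters. No window held a gamma-activated site (TTCNNNGAA, 7.02% of promoters), the core of an interferon-stimulated response element (GAAANNGAAA, 2.98%) or a CArG box (1.47%), the motif of serum response factor. A match is a string of letters and not a measured binding site. Only exact matches were counted, so a window without a match may still hold a site. These motifs were chosen with the expression values known.

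Total counts per library ranged from 8887861 in control replicate 3 to 32722293 in control replicate 1, a 3.68-fold range, and mitochondrial genes took 8.55% to 11.02% of them in controls, 7.95% to 9.35% in 18h-αGal and 10.3% to 11.7% in 72h-αGal libraries. Control replicate 3 also had the highest sum of enterocyte markers, and results that turn on it are given with and without it. The summed normalised counts of 8 epithelial markers were 99421 to 128496 in controls, 113936 to 131141 at 18 h and 85625 to 110338 at 72 h. Those of 9 T and NK cell markers lay between 38.0 and 54.0 in controls, 30.4 and 57.5 in 18h-αGal and 5.89 and 154 in 72h-αGal mice, with Cd3e and Nkg7 at 0 in the 3 controls and Cd3g, Cd4, Nkg7 and Gzmb at 0 in the 3 18h-αGal libraries. Sums of 5 endothelial markers were 71.2 to 88.0 in controls, 18.0 to 37.3 at 18 h and 56.5 to 86.1 at 72 h, and those of 6 stromal markers were 41.8 to 59.4, 16.2 to 20.8 and 16.2 to 34.8. At 18 h both were below the controls without overlap. Sums of 7 myeloid markers were 330.5 to 522 in controls, 402 to 651 at 18 h and 628 to 858 at 72 h, where they were above the controls without overlap. Most of each sum was Cd68 alone, with 466, 368 and 262 normalised counts in controls and 531, 556 and 751 at 72 h. Mean counts of Lyz2, Itgam and Csf1r were 13.4, 45.1 and 14.7 in controls and 14.6, 38.9 and 15.3 at 72 h. Itgax went from 4.34 to 26.0, and Adgre1 and S100a8 were at 0 in the 3 72h-αGal libraries. The part of these markers in the results was not tested. B and plasma cell markers summed to 19.8 to 92.7 over all libraries and the 1 erythroid marker in the table to 19.0 to 76.9. Crypt composition was less even. The summed stem cell markers (8 genes, among them Lgr5 and Olfm4) were 46350 to 88323 in controls, 14100 to 43931 at 18 h and 59704 to 93530 at 72 h, and the 10 enterocyte markers summed to 150330 to 405500, 200475 to 326668 and 98937 to 191212. In such bulk samples fewer cells of a type and less RNA per cell cannot be told apart.

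Expressed per kilobase of annotated exon, the p53 genes spanned a wide range in control IECs. The length used was that of all annotated exons of a gene, merged over its transcripts. The order of the genes depends on these lengths and could differ with those of single transcripts. Btg2 was the most abundant at 1327 ± 174 normalised counts per kb (SD, n = 3), and its libraries did not overlap with those of Ccng1, which followed at 450.2 ± 64.3. Trp53 (367 ± 45.9), Cdkn1a (305 ± 78.6), Sesn1 (258 ± 69.1), Mdm2 (174 ± 27.6) and Trp53inp1 (122 ± 31.1) came next, and each neighbour in this order from Ccng1 to Trp53inp1 overlapped with the next. Sesn2 at 86.4 ± 11.9 and Zmat3 at 51.2 ± 10.1 per kb were lower without overlap, and Phlda3 was close to undetected at 1.47 ± 2.54 per kb.

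At 18 h after αGal the p53 genes moved in different directions. Ccng1 rose about as much as Sesn1 fell, Btg2 fell by a smaller amount, and the other 7 did not pass the test, Trp53, Mdm2 and Cdkn1a included. A gene is termed called where its Benjamini-Hochberg adjusted p, over all 18933 genes tested by quasi-likelihood in edgeR, is below 0.05. 1 of the 10 was called higher, where 3.27% of all genes were, and 2 were called lower, where 2.69% of all genes were, together 3 of 10 beside 5.96%. The median log2 fold change was 0.068 over the 10 genes and -0.030 over all genes tested. The groups did not overlap for 4 of the 10 (23.8% of all genes), with Phlda3, which had few reads, among the 4. Without 18h-αGal replicate 2, none of the 10 was called by edgeR and the count over all genes fell from 1128 to 432, and without control replicate 3 the count of members rose to 4.

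**Figure D1:**
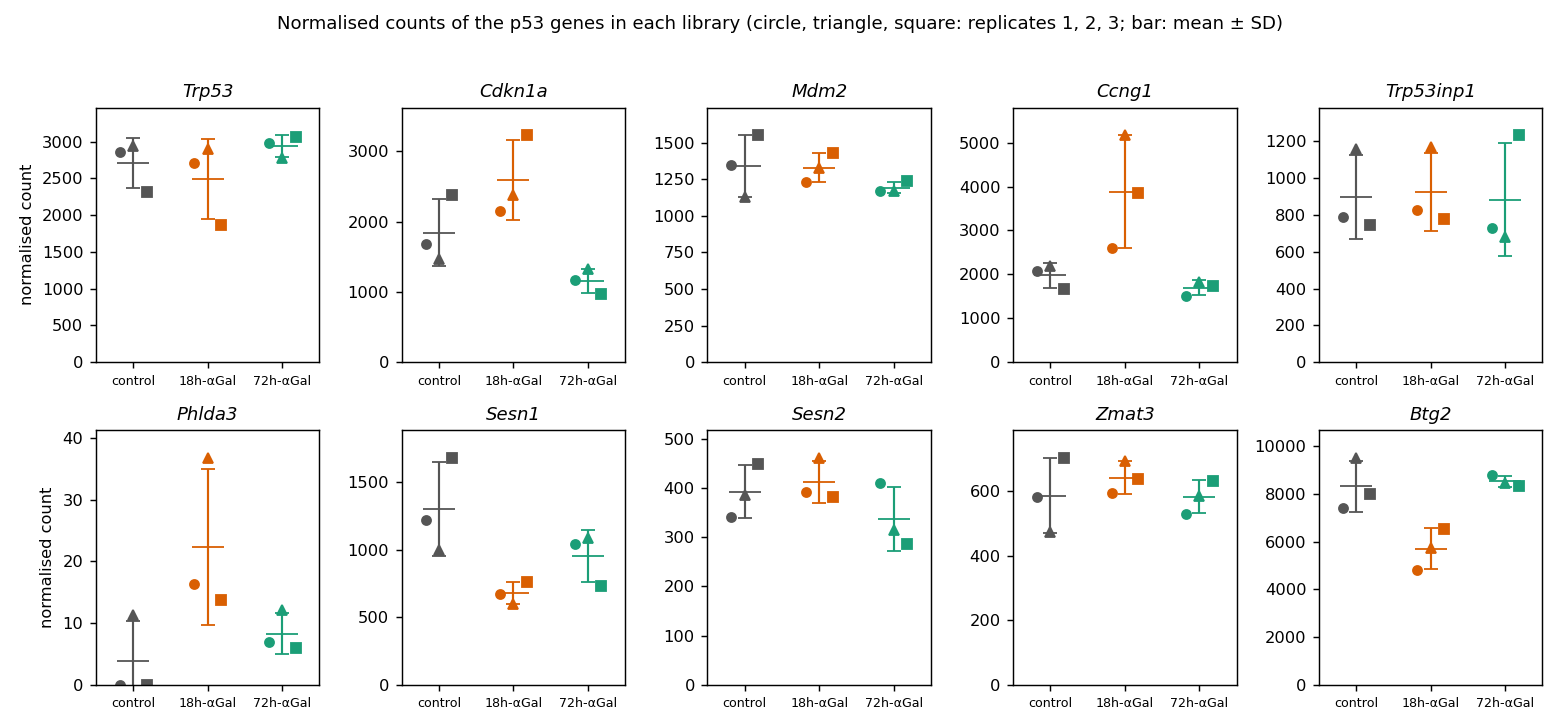
Normalised counts (vertical axes, from 0, a scale per gene) of the 10 p53 genes in control, 18h-αGal and 72h-αGal mice. Symbols are replicates 1 (circle), 2 (triangle) and 3 (square) and bars are the mean ± SD of 3 mice. Ccng1 is above both other groups at 18 h in every mouse, from 2603 to 5182, Btg2 is below both, from 4824 to 6525, and Trp53 and Mdm2 overlap between control and 18h-αGal.

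Trp53 itself (ENSMUSG00000059552, chr11:69469669-69482701, plus strand, GRCm39) had normalised counts of 2856, 2948 and 2320 in control replicates 1 to 3, and of 2710.0, 2903 and 1870 in the 18h-αGal mice. The groups overlapped, with the third mouse the lowest in each. The log2 fold change was -0.11 ± 0.16 (SE), with a 95% interval from -0.44 to 0.22 (edgeR, adjusted p = 0.755). Mdm2 (ENSMUSG00000020184, chr10:117524780-117546730, minus strand) had 1350, 1128 and 1552 normalised counts in controls and 1230.2, 1331 and 1432 at 18 h. All 3 of its 18h-αGal values lay inside the range of the controls. The 95% interval of its log2 fold change ran from -0.29 to 0.28 (edgeR, adjusted p = 0.994). Mdm4, the relative of Mdm2 that blocks p53 as a transcription factor, was also level, at -0.02 ± 0.11 (edgeR, adjusted p = 0.949).

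Among the arrest genes, Cdkn1a (ENSMUSG00000023067, chr17:29309936-29319701, plus strand) encodes the cyclin-dependent kinase inhibitor p21. Its normalised counts were 1678, 1471 and 2377 in controls and 2155, 2379 and 3236 in 18h-αGal mice. The 18h-αGal mice were high, but control replicate 3 lay above 18h-αGal replicate 1, so the groups overlapped. The mean went from 1842 ± 475 to 2589.6 ± 571 (SD, n = 3 each), a log2 fold change of 0.50 ± 0.19 (SE), which did not pass the test (edgeR, adjusted p = 0.134). Without control replicate 3 the log2 fold change was 0.72 and it passed (edgeR, adjusted p = 0.0176), the single alternative of 12 in which it did. The enterocyte marker sum was highest in the same control library, at 405500, and its part in the Cdkn1a value was not tested. The antisense transcript Dino, whose exons overlap 504 bp (8.34%) of Cdkn1a exon sequence on the opposite strand, had 147, 92.1 and 128 normalised counts in controls and 131, 215 and 250 at 18 h. Dino was named after its values were seen and did not pass either, with a log2 fold change of 0.69 ± 0.31 (edgeR, adjusted p = 0.222). How reads were assigned by strand is not given in the sources used here, so these overlapping genes may share reads.

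Ccng1 (ENSMUSG00000020326, chr11:40639377-40646148, minus strand) encodes cyclin G1, a p53 target that recruits the phosphatase PP2A to Mdm2. It had 2078, 2201 and 1662 normalised counts in controls and 2603, 5182 and 3855 at 18 h. Every 18h-αGal mouse was above every control, with replicate 2 the highest and replicate 1 not far above the controls. The mean rose from 1980.3 ± 283 to 3880.2 ± 1290 (SD, n = 3 each). This was a log2 fold change of 0.97 ± 0.21 (SE), or 1.96-fold, with a 95% interval from 0.52 to 1.424 (edgeR, adjusted p = 0.0173). The call held in 9 of 12 alternatives and was lost without control replicate 1, 18h-αGal replicate 2 or 18h-αGal replicate 3, with log2 fold changes from 0.71 to 1.19 and adjusted p from 0.00032 to 0.066 over the alternatives. Its exons share 114 bp (2.59%) with Nudcd2 on the opposite strand.

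Btg2 (ENSMUSG00000020423, chr1:134002908-134015033, minus strand) encodes an antiproliferative protein that brings mRNA deadenylases to transcripts, and it is both a p53 target and an immediate early gene of growth factor signalling. Normalised counts were 7408, 9516 and 7998 in controls and 4824, 5748 and 6525 at 18 h. All 3 treated mice lay below all controls. The mean fell from 8307 ± 1087 to 5699 ± 851 (SD, n = 3 each), a log2 fold change of -0.54 ± 0.13 (SE), or 0.689 of the control level (edgeR, adjusted p = 0.0204). The call held in 8 of 12 alternatives and was lost in the fit of the 2 groups alone and without control replicate 2, 18h-αGal replicate 1 or 18h-αGal replicate 2 (edgeR, largest adjusted p = 0.0911). The lncRNA gene Gm31974 overlaps 898 bp (14.3%) of its exon sequence on the opposite strand and had no row in the count table.

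Neither Trp53inp1 nor Phlda3, which favour apoptosis, was called at 18 h. Trp53inp1 (ENSMUSG00000028211, chr4:11156412-11175230, plus strand), a nuclear stress protein that supports p53-driven cell death and autophagy, had 788, 1160 and 744 normalised counts in controls and 827, 1171 and 777 at 18 h. The mice of both groups covered nearly the same range, with replicate 2 the highest in each, and the log2 fold change was 0.05 ± 0.26 (edgeR, adjusted p = 0.946). Phlda3 (ENSMUSG00000041801, chr1:135693809-135697686, plus strand), which competes with the survival kinase Akt for membrane lipids, was at the edge of detection, with raw counts of 0, 12 and 0 in controls and of 26, 41 and 10 at 18 h. Scaled to depth, these were 0, 11.4 and 0 against 16.4, 36.8 and 13.8 normalised counts. The 18h-αGal mice were all above the controls, but a count of 0 allows up to 3 counts, or 0.0917 CPM (counts scaled to the library total) in control replicate 1 and 0.338 CPM in control replicate 3, a limit that covers counting error only. The log2 fold change of 2.45 ± 1.36 had a 95% interval from -0.46 to 5.36 and did not pass (edgeR, adjusted p = 0.335). With the low-count filter, Phlda3 was tested only in fits that held the 18h-αGal libraries. It was left out of the fit of the control and 72h-αGal groups alone. Its lack of overlap at 18 h is thus not independent of that filter.

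The sestrins, which restrain the growth kinase complex mTORC1 when nutrients or redox balance fail, parted. Sesn1 (ENSMUSG00000038332, chr10:41685931-41784423, plus strand) had 1222, 1000.45 and 1683 normalised counts in controls and 673, 602 and 763 at 18 h. Each 18h-αGal mouse was below each control, and the means were 1302 ± 348 and 679 ± 80.8 (SD, n = 3 each). Sesn1 fell by 0.93 ± 0.19 on the log2 scale, to 0.527 of the control level, with a 95% interval from -1.34 to -0.51 (edgeR, adjusted p = 0.0122). The call held in 11 of 12 alternatives and was lost without 18h-αGal replicate 2 (edgeR, adjusted p = 0.0713). Its exons share 548 bp (10.9%) with Cep57l1 on the opposite strand. Sesn2 (ENSMUSG00000028893, chr4:132219335-132237815, minus strand), which is also a target of ATF4 in the integrated stress response, had 342, 385 and 449 normalised counts in controls and 393, 462 and 382 at 18 h. Here the groups overlapped, and the log2 fold change was 0.09 ± 0.20 with a 95% interval from -0.34 to 0.52 (edgeR, adjusted p = 0.864). Whether Sesn1 and Sesn2 differed from each other was not tested.

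Zmat3 (ENSMUSG00000027663, chr3:32388941-32420163, minus strand), a zinc finger protein that binds RNA and alters splicing downstream of p53, had 582, 473 and 704 normalised counts in controls and 593, 694 and 637 at 18 h. The treated mice lay inside the control range, and the log2 fold change was 0.14 ± 0.17 with a 95% interval from -0.22 to 0.51 (edgeR, adjusted p = 0.703).

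Beside these values, stem cell markers were lower at 18 h. All 8 had negative log2 fold changes (median -1.07), with 3 at an unadjusted p under 0.05 and 0 called by edgeR, and their sums did not overlap with those of the controls. All 3 of the p53 genes called at 18 h moved in the mice in which these sums were low. The part of stem cell content in the values of Ccng1, Sesn1 and Btg2 was not tested.

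**Figure D2:**
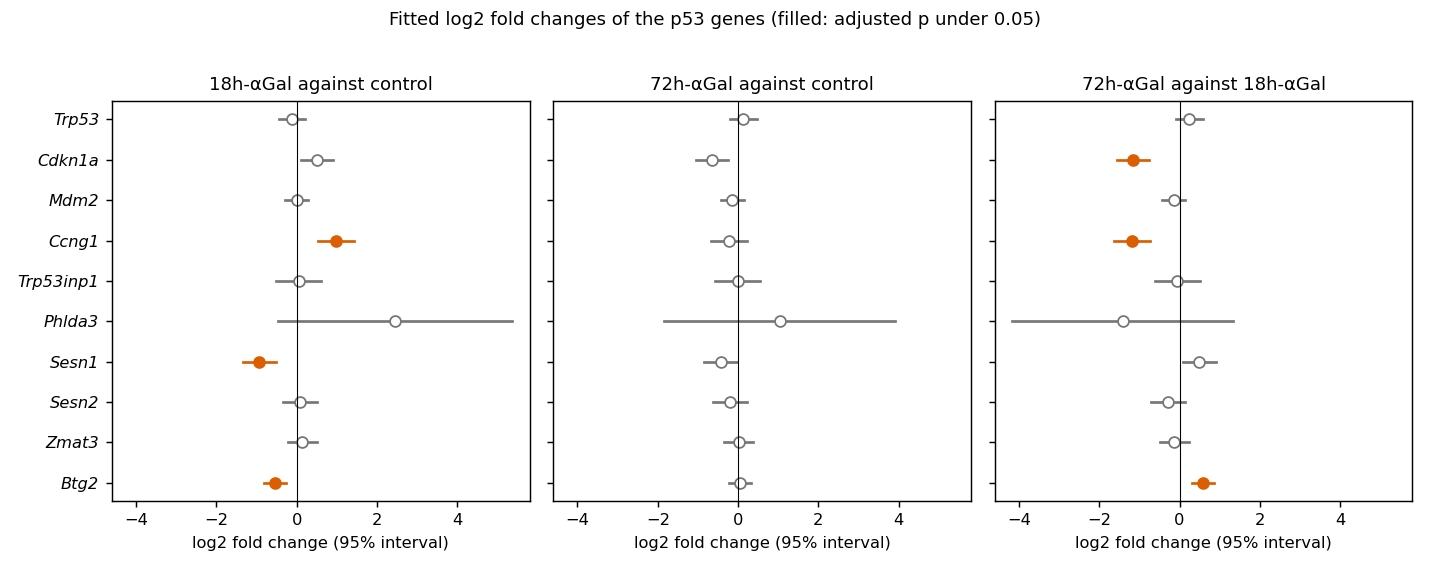
Fitted log2 fold change (point) with its 95% interval (line) for each p53 gene in the 3 comparisons, from edgeR, with called genes filled in orange. At 18 h Ccng1 (0.97) lies above 0 and Sesn1 (-0.93) and Btg2 (-0.54) below, no gene is called in 72h-αGal against control, and Cdkn1a (-1.16), Ccng1 (-1.19) and Btg2 (0.59) are called between the 2 times. The interval of Phlda3 is the widest, from -0.46 to 5.36 at 18 h.

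At 72 h none of the 10 genes was called against control by edgeR, where 0.0264% of all genes were called, all of them lower. DESeq2 and limma-voom also called 0 of the 10, and 2 had an unadjusted p under 0.05, both lower. These were Cdkn1a and Sesn1. Cdkn1a had 1165, 1322 and 974 normalised counts at 72 h, each below the lowest control (1471), with a mean of 1154 ± 175 (SD, n = 3) and a log2 fold change of -0.66 ± 0.19 (edgeR, adjusted p = 0.701). It was the only 1 of the 10 whose groups did not overlap, beside 12.7% of all genes. The enterocyte markers moved with it, with negative log2 fold changes in 10 of 10 (median -0.77, 0 called by edgeR and 1 at an unadjusted p under 0.05), and their part was not tested. Sesn1 stood at 1044, 1084 and 734, with 2 mice within and 1 below the control range, and a log2 fold change of -0.43 ± 0.19 (edgeR, adjusted p = 0.826).

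The other 8 overlapped with the controls at 72 h and did not pass the test. Ccng1 had 1498, 1829 and 1742 normalised counts (log2 fold change -0.22 ± 0.21), and Btg2 had 8775, 8462 and 8331 (0.05 ± 0.13). Both are arrest genes that had been called at 18 h. Trp53 was at 2984, 2773 and 3069 (0.13 ± 0.16) and Mdm2 at 1173, 1171 and 1238 (-0.15 ± 0.13). Trp53inp1 was at 729, 683 and 1236, Sesn2 at 410.1, 315 and 286, Zmat3 at 531, 585 and 632, and Phlda3 at 6.95, 12.1 and 5.89 normalised counts. The log2 fold change of Phlda3, 1.03 ± 1.35 (edgeR, adjusted p = 0.960), was the largest of the 10 in size, and its 95% interval ran from -1.84 to 3.91.

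Between 18 and 72 h, Cdkn1a and Ccng1 were lower and Btg2 higher at the later time. This comparison uses the same 18h-αGal libraries as the first, so the 2 are not independent. Of the 10, 1 was called higher and 2 lower, beside 4.18% and 6.04% of all genes, together 3 of 10 beside 10.2%, and the groups did not overlap for 4 of 10 (32.8% of all genes). The median log2 fold change was -0.14 over the 10 and 0.05 over all genes tested. Cdkn1a was 0.448 of its 18 h level, a log2 fold change of -1.16 ± 0.19 with a 95% interval from -1.56 to -0.75 (edgeR, adjusted p = 0.00214). The lowest 18h-αGal mouse, at 2155, was above the highest 72h-αGal mouse, at 1322. Ccng1 was 0.438 of its 18 h level, at -1.19 ± 0.21 (edgeR, adjusted p = 0.00437), and Btg2 was 1.5-fold higher, at 0.59 ± 0.13 (edgeR, adjusted p = 0.00854). All 3 calls held in each of the 12 alternatives run. Sesn1 did not pass, at 0.50 ± 0.19 (edgeR, adjusted p = 0.124), and its groups overlapped. Phlda3 showed no overlap between the times but did not pass either, at -1.415 ± 1.29 (edgeR, adjusted p = 0.559). Among the markers, the enterocyte sums at the 2 times did not overlap (10 of 10 lower at 72 h, median -0.72, 0 called by edgeR), and neither did the stem cell sums (8 of 8 higher, median 1.04, 1 called), and their part in these values was not tested. The epithelial marker sums did not overlap between the times either (6 of 8 lower at 72 h, median -0.20, 1 called, higher). Mitochondrial shares at the 2 times did not overlap, and the part of these sums and shares was likewise not tested.

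The rest of the p53 pathway was described with 65 genes in 6 lists, regulators and targets for arrest, apoptosis, repair, metabolism and other roles. Of these, 64 were in the table and 60 were tested. At 18 h, 2 of the 60 were called higher and 2 lower, shares near the 3.27% and 2.69% of all genes. The median log2 fold change was -0.021. The genes that rose were Rps27l, a ribosomal protein paralogue that modulates Mdm2 (0.84 ± 0.19, edgeR, adjusted p = 0.0175), and Gtse1, a microtubule-associated protein of dividing cells that moves p53 out of the nucleus (0.69 ± 0.18, edgeR, adjusted p = 0.0346). Rps27l had 527, 398 and 592 normalised counts in controls and 704, 923 and 1075 at 18 h, and all 3 treated mice were above all controls. The genes that fell were Bcl2l11, which encodes the pro-apoptotic protein Bim and is also driven by FoxO factors, and the receptor tyrosine kinase gene Epha2. Bcl2l11 had 842, 831 and 1003 normalised counts in controls against 448, 335 and 477 at 18 h, a log2 fold change of -1.08 ± 0.17 (edgeR, adjusted p = 0.00191) that was called in all 12 alternatives. Epha2 fell by 0.50 ± 0.13 on the log2 scale (edgeR, adjusted p = 0.0331), a call that was lost in 6 of 12 alternatives, and those of Gtse1 and Rps27l were lost in 7 and 5. Without control replicate 1, control replicate 2 or 18h-αGal replicate 2 none of these 3 calls held, with edgeR adjusted p of up to 0.116, 0.0707 and 0.167. Without 18h-αGal replicate 1 those of Epha2 and Gtse1 were lost (0.115 and 0.105), without control replicate 3 that of Gtse1 (0.0644) and without 18h-αGal replicate 3 that of Rps27l (0.0553).

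The apoptosis targets Fas, Bax, Bbc3, Pmaip1 and Perp did not pass at 18 h. The death receptor gene Fas had 132, 104 and 285 normalised counts in controls and 364, 292 and 407 at 18 h, so that the lowest treated mouse was just above control replicate 3 (log2 fold change 1.07 ± 0.36, edgeR, adjusted p = 0.0954). Bax, the pore-forming effector of mitochondrial apoptosis, had 156, 136 and 152 against 191, 393 and 200.1, without overlap and with 18h-αGal replicate 2 far above the others (0.83 ± 0.30, edgeR, adjusted p = 0.126). Bbc3 (Puma) and Pmaip1 (Noxa), which neutralise Bcl-2 proteins, had log2 fold changes of -0.29 ± 0.24 and -0.43 ± 0.17 (edgeR, adjusted p = 0.546 and 0.169). Both were lower in all 3 treated mice than in all controls, whereas Fas and Bax were higher in all 3. For Pmaip1 the gap was narrow, with the highest treated mouse at 1408.75 and the lowest control at 1410.5 normalised counts. Over the 60 genes tested from these lists, the groups did not overlap for 14, a share near the 23.8% of all genes. Perp, a membrane protein of desmosomes and cell death, was at 0.05 ± 0.13 (edgeR, adjusted p = 0.881). Fas passed in 3 of 12 alternatives, at 1.58 without control replicate 3 (edgeR, adjusted p = 0.00732), at 1.34 by limma-voom and at 1.08 without the low-count filter. Ddb2 also passed in 3 of 12, at -1.02 without control replicate 3 (edgeR, adjusted p = 0.0192), at -0.82 by DESeq2 and at -0.80 without the filter. With all libraries the damage recognition gene Ddb2 was at -0.81 ± 0.26 (edgeR, adjusted p = 0.0861) and the stress cytokine gene Gdf15 at 0.22 ± 0.45 (edgeR, adjusted p = 0.843).

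At 72 h against control, 0 of the 60 were called by edgeR, while 6 had an unadjusted p under 0.05, 2 higher and 4 lower. Between 18 and 72 h, 3 of the 60 were called higher and 4 lower, together 7 beside 10.2% of all genes (4.18% higher and 6.04% lower), a share near that of all genes, with a median of 0.03. Those higher at 72 h were Bcl2l11 (0.78 ± 0.17), Ddb2 (0.98 ± 0.26) and the damage response adaptor gene Trp53bp1 (0.44 ± 0.13), with edgeR adjusted p of 0.00849, 0.0281 and 0.0436. Those lower were Rps27l (-0.98 ± 0.19), Fas (-1.23 ± 0.36), Gtse1 (-0.60 ± 0.18) and Bax (-1.01 ± 0.30), with edgeR adjusted p of 0.00518, 0.0415, 0.0453 and 0.0464. The calls of Bcl2l11 and Rps27l held in all 12 alternatives, and the other 5 were each lost in 4 to 8 of them, each without 18h-αGal replicate 2, 72h-αGal replicate 1 or 72h-αGal replicate 3 (edgeR, adjusted p from 0.0720 to 0.282), and some of them also without each other αGal library. Without 18h-αGal replicate 2, the library with the highest Bax, the log2 fold change of Bax was -0.59 (edgeR, adjusted p = 0.282).

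**Figure D3:**
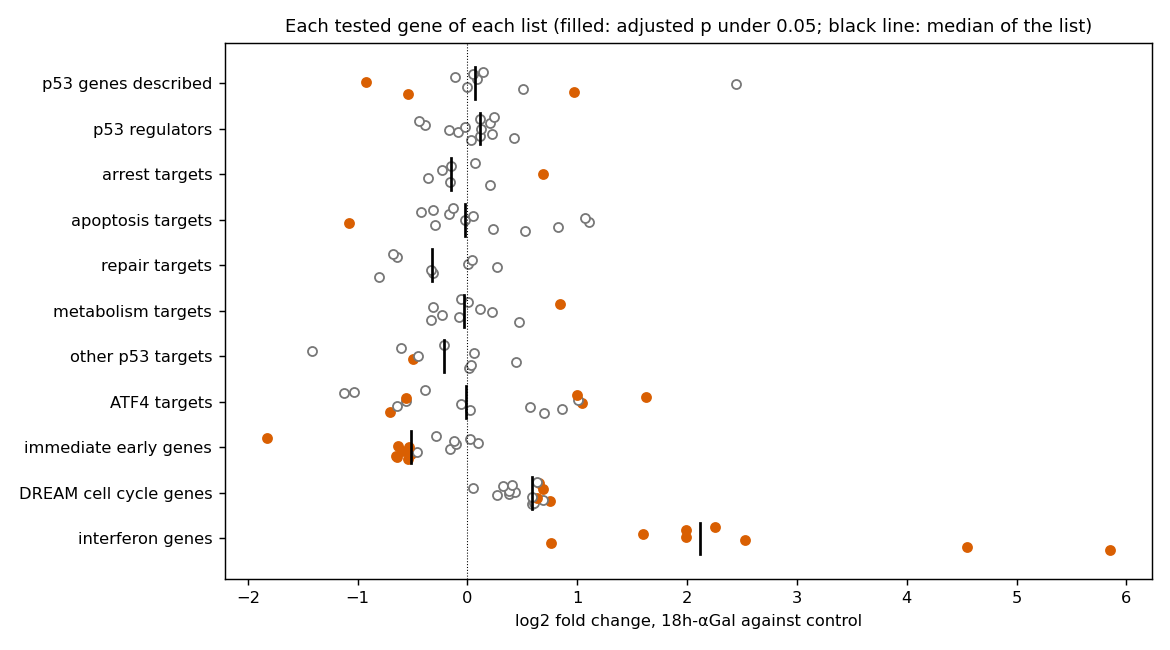
Log2 fold change of 18h-αGal against control for each tested gene of the p53 lists and of 4 lists of other programmes, with called genes filled in orange and the median of each list as a black line. The p53 lists lie on both sides of 0, the immediate early genes (Btg2 included) lie mostly below it, and the 16 DREAM genes and 8 interferon genes lie above it.

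Other programmes that share genes with the pathway were set beside it. Of 14 immediate early genes, apart from Btg2, 0 were called higher and 7 lower at 18 h, beside 3.27% and 2.69% of all genes. The median log2 fold change of the 14 was -0.49. Nr4a1 (-1.83 ± 0.23), Dusp1 (-0.64 ± 0.12), Egr1 (-0.65 ± 0.12) and Junb (-0.63 ± 0.13) had the smallest p (edgeR, adjusted p = 0.00157, 0.00628, 0.00693 and 0.0111). Between 18 and 72 h, 8 of the 14 were called higher and 0 lower (median 0.50), beside 4.18% and 6.04% of all genes. Nr4a1, Dusp1, Fos and Fosb came first. Against control at 72 h 0 were called by edgeR with 1 at an unadjusted p under 0.05.

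Of 16 ATF4 targets, 3 were called higher and 2 lower at 18 h, beside 3.27% and 2.69% of all genes. The 3 serve serine and folate metabolism, Psat1 (1.63 ± 0.27), Mthfd2 (1.04 ± 0.22) and Shmt2 (0.998 ± 0.243), while the transcription factor gene Atf3 (-0.70 ± 0.10) and the phosphatase subunit gene Ppp1r15a (-0.56 ± 0.14) fell, with edgeR adjusted p between 0.00136 and 0.0340. Sesn2, the member shared with this programme, was level as given above. Of 16 DREAM target genes of cell division, 4 were called higher and 0 lower at 18 h, beside 3.27% and 2.69% of all genes. The 4 were Birc5 (0.76 ± 0.18), Foxm1 (0.69 ± 0.16), Plk1 (0.65 ± 0.15) and Ccna2 (0.64 ± 0.16), with edgeR adjusted p between 0.0190 and 0.0333. All 16 had positive log2 fold changes (median 0.59) and 11 an unadjusted p under 0.05. Cdkn1a was not called in these mice, and a link between its level and these genes was not tested. As a reference for the response to αGal, all 8 interferon-induced genes were called higher at 18 h (median 2.12), beside 3.27% of all genes. Irgm1 (2.52 ± 0.21), Gbp2 (4.55 ± 0.47) and Psmb9 (1.99 ± 0.25) were among those with the smallest p, with edgeR adjusted p between 5.2e-05 and 0.00084. All 8 were called lower at 72 h than at 18 h, beside 6.04% of all genes, and 0 were called at 72 h against control (edgeR, 2 at an unadjusted p under 0.05).

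The genes whose log2 CPM followed each called member most closely over the 9 libraries, among 11148 genes with a mean of at least 100 counts, are given as a description, since libraries of a group share their treatment. For Cdkn1a these were Timm8b (Pearson r = 0.99), Pnp (0.989) and Arcn1 (0.987), and for Ccng1 they included Gtf2f2 (0.959) and Trak2 (0.959). Those of Sesn1 were Glt28d2 (0.983), Ano6 (0.978) and Cyp2c66 (0.973), and those of Btg2 were the immediate early gene Jun (0.976), Slc1a1 (0.975) and Cpt1a (0.969). Jun had 11592, 13152 and 12027 normalised counts in controls, 7199, 8765 and 9425 at 18 h and 12429, 13075 and 11395 at 72 h. The 3 18h-αGal mice were thus the lowest for Jun as for Btg2.

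**Figure D4:**
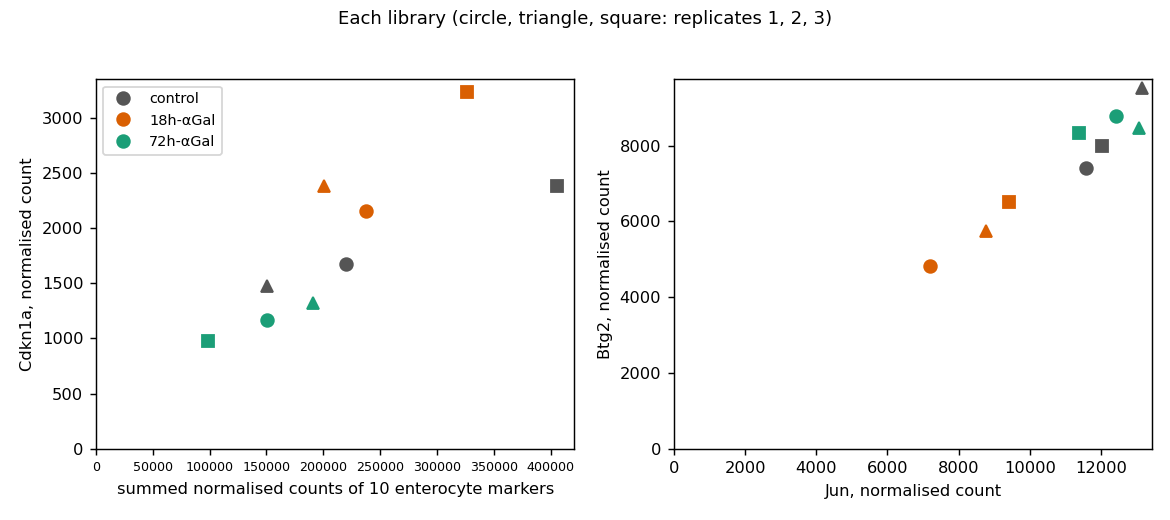
Left, Cdkn1a normalised count (vertical axis) against the summed normalised counts of 10 enterocyte markers (horizontal axis) in each of the 9 libraries, and right, Btg2 against Jun. Colours are groups and symbols are replicates 1 to 3. Control replicate 3 has the largest enterocyte sum, 405500, with 2377 counts of Cdkn1a, the 72h-αGal mice have the lowest Cdkn1a, and the 3 18h-αGal mice lie lowest for Btg2 and Jun.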

How the data were processed

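RNA-seq libraries of sorted crypt IECs from 9 mice (3 control, 3 18h-αGal, 3 72h-αGal) were analysed. Per the labels, libraries were directional and depleted of ribosomal RNA, with 100 bp reads. The authors aligned them with HISAT2 and counted reads with featureCounts (Subread). The submitters' processing notes name build GRCm38 (mm10), whereas the study's methods name GRCm39, and neither the annotation release nor the strand setting is given in the sources used here. The authors deposited raw counts per gene. They also deposited a normalised signal, here called normalised counts, which is the count scaled by a single factor for each library that matched the size factors of DESeq2 1.42.0 (largest relative difference 5.9e-15). It corrects for depth and not for gene length. Each gene had a total of at least 6 counts.

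From the raw counts, edgeR 4.0.16 (R 4.3.3) was run with filterByExpr, which kept 18933 of 29288 genes, TMM scaling and a robust quasi-likelihood model with a mean for each of the 3 groups over all 9 libraries (common dispersion 0.123). The code was also run on simulated data. These had larger changes than the members called at 18 h and the same spread for every gene, so they do not bear on those calls. Intervals are 95% intervals of the fit. Symbols, positions and exon lengths came from GENCODE vM39 (GRCm39), in which 28480 gene IDs matched and 808 did not. Alternatives were DESeq2, limma-voom (limma 3.58.1), median-of-ratios factors, no low-count filter, the 2 groups alone, a replicate block, a required log2 fold change of 1 or more in size and each library left out in turn. The count of 12 alternatives per gene leaves out the fold threshold. For Phlda3 at 72 h against control it was 11, since the filter removed this gene from the fit of those 2 groups alone.

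The members, the gene lists and the motifs were chosen with earlier results of these data known. Named by rule were all 10 members, every called gene of the other p53 lists with Mdm4, Bax, Bbc3, Pmaip1, Perp, Fas, Ddb2 and Gdf15, up to 4 called genes of each further list and, for each called member, the 3 genes most alike. Replicates differed by more than sampling noise (chi-square per degree of freedom 14.2 to 47.5). Markers Cd3d, Ly6g and 4 globin genes, and the p53 relative Trp63, were not analysed here. Some genes that the rule names are not reported here.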

Additional observations from a re-analysis of the deposited data

Results flagged for a closer look

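The 72h-αGal and 18h-αGal groups differed for 3 of the 10 p53 genes in edgeR's quasi-likelihood test. The log2 difference (72 h minus 18 h) was -1.16 for Cdkn1a, -1.19 for Ccng1 and 0.59 for Btg2, with adjusted p of 0.00214, 0.00437 and 0.00854, in all 3 mice against all 3 each time. Cdkn1a is the gene among them whose 18 h value had not passed against control (0.50) and whose 72 h value lay on the other side of control (-0.66, also not passed). The absence of controls at 72 h leaves the time of sampling and the time since αGal confounded, and they cannot be told apart.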

How the results depend on the processing

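Of the 10 p53 genes, the count called at 18 h against control was 3. It was 0 when a log2 fold change of 1 or more in size was required, since all 3 changed by less, and 0 to 4 when 1 library was left out, with 0 without 18h-αGal replicate 2. At 72 h against control the count was 0 under every alternative run. Between the times it was 3 in each alternative but the fold threshold, where it was 2, since Btg2 (0.59) lies below that threshold. Over all genes the count at 18 h (1128) was 1720 by DESeq2, 593 with the 2 groups alone, 426 with the fold threshold and 432 to 1556 without 1 library (489 without control replicate 1, 681 without control replicate 2, 432 without 18h-αGal replicate 2). At 72 h against control (5) it was 31 by DESeq2, 13 without the low-count filter, 1 with the replicate block and 0 to 20 without 1 library, the most without control replicate 3. Between the times (1936) it was 682 with the fold threshold and 831 to 1503 without 1 library (940 without 18h-αGal replicate 2, and 1108, 1194 and 831 without 72h-αGal replicates 1, 2 and 3). The causes of these shifts, apart from fewer samples or a stricter threshold, were not tested.

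Values near 0 changed sign. At 18 h Mdm2 was at 0.021 by limma-voom, 0.0056 without the filter, 0.0024 with the replicate block and -0.11 to 0.10 without 1 library. Without 1 library, Trp53 ran from -0.23 to 0.061, Trp53inp1 from -0.16 to 0.28, Sesn2 from -0.0029 to 0.18, Mdm4 from -0.079 to 0.056, Perp from -0.019 to 0.15 and Gdf15 from -0.12 to 0.55. At 72 h against control Trp53inp1 was at 0.0034 without the filter, 0.0045 with the replicate block and -0.34 to 0.23 without 1 library, Zmat3 at -0.0021 with median-of-ratios factors and -0.11 to 0.16 without 1 library, and Btg2 from -0.019 to 0.17. Between the times Trp53inp1 ran from -0.39 to 0.15. None of these was called in any setting run.

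The labels gave no litter or batch that would pair mice by replicate number. Deviations of same-numbered libraries correlated between -0.15 and 0.11, and those of differently numbered libraries between -0.10 and 0.14. The paper states that its mice were not littermates. With 3 mice per group these values cannot exclude a shared processing day. With the replicate block 3, 0 and 3 of the p53 genes were called in the 3 comparisons, and 781, 1 and 1371 of all genes. The block ended the calls of Epha2 and Gtse1 at 18 h and of Bax, Fas, Gtse1 and Trp53bp1 between the times, and no other call of a named p53 gene. Phlda3 had 0 to 41 raw counts per library, so that its values rest on few reads.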
